A study of Homo sapiens with 8 samples.

Results

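HCT-116 cells, a line from a human colorectal carcinoma, were compared after 4 h in 2.5 µM 3-MB-PP1 (2 libraries) and after 4 h in the solvent DMSO (2 libraries); these are 4 of the 8 libraries of the series. Both groups had first spent 12 h in DMSO and had been washed with buffered saline, so neither had met 5-fluorouracil (5-FU). The other 4 libraries had spent the first 12 h in 40 µM 5-FU, followed by 4 h in DMSO (2 libraries) or in 2.5 µM 3-MB-PP1 (2 libraries), and serve below as a second, separate test of the same drug. The series concerns inhibitors of the kinase CDK7, and 3-MB-PP1 is labelled by its name alone. Which form of CDK7 or of any other kinase these cells carry is not given in the labels.

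3-MB-PP1 is an ATP-competitive compound of the PP1 type, made to inhibit kinases whose ATP pocket has been enlarged by mutation, the so-called analog-sensitive alleles. CDK7 works with cyclin H and MAT1 as the CDK-activating kinase, and as a part of the general transcription factor TFIIH it phosphorylates the tail of RNA polymerase II (Pol II) near the start of genes. CDK9 with a cyclin T forms P-TEFb, which releases paused Pol II into elongation, and CDK7 is known to activate CDK9, CDK1 and CDK2. Short-lived mRNAs and mRNAs made in one phase of the cell cycle are the classes usually looked at first when such kinases are inhibited.

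RNA was depleted of ribosomal RNA and sequenced from one end. The gene counts of the vehicle libraries were 12768294 and 13288408, and those of the treated libraries 49892619 and 10452693, so 1 treated library was 4.77 times as deep as the other. The 5-FU libraries held 12445477 to 16549902 counts. Of 23524 genes in the tables, 15492 passed the filter on low counts. Levels are given as counts per 1000000 (CPM) after TMM scaling, and changes as log2 fold changes with the standard error (SE) of the edgeR fit. "Rose", "fell" and "called" mean a Benjamini-Hochberg adjusted p below 0.05 across the genes tested. The libraries of a group correlated at 0.993 (vehicle) and 0.994 (3-MB-PP1) on the log scale. No label says that the 2 libraries of a group came from separate cultures. The p-values therefore reflect how these libraries vary, and that variation may be technical. The epithelial markers summed to 2903 to 3034 CPM in vehicle and 3030 to 3056 CPM with 3-MB-PP1, with only CDX1 of 14 without a count. Leukocyte markers summed to 16.3 to 16.9 CPM in vehicle and 13.8 to 16.5 CPM with 3-MB-PP1. Fewer cells of a kind and less RNA per cell cannot be told apart in these bulk libraries.

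3-MB-PP1 changed many genes by a little and a few genes by a lot. Of the 15492 genes tested, 4406 (28.4%) were called, 1797 higher (11.6%) and 2609 lower (16.8%), with a median size of 0.41 on the log2 scale. Changes over 2-fold were mostly rises: 380 genes (2.45%) rose and 164 (1.06%) fell by more than that. The asymmetry was wider past 4-fold, with 116 genes higher (0.749%) and 9 lower (0.0581%). Both treated libraries lay above both controls for 4411 genes (28.5%) and below both for 5267 (34%). With 2 libraries a group, such a separation is common by chance alone. Among the 3873 genes with the lowest mean levels (0.0394 to 5.24 CPM) 490 rose and 237 fell, while among the 3873 with the highest (62.1 to 9547 CPM) 435 rose and 856 fell.

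These directions are relative to the median gene, which TMM holds near 0 (median log2 fold change -0.012). With scaling to the added ERCC spike-in RNAs the median gene stood at 0.189, 112 genes were called, and 107 of these (95.5%) were higher, against 40.8% of the calls with TMM. The spike-ins took 4.16% and 2.52% of the vehicle libraries and 3.84% and 2.18% of the treated ones, so replicates of a group differed more in this share than the groups did. DESeq2 called 2542 genes, 919 higher and 1623 lower. Leaving out 1 library gave 2972 genes without 3-MB-PP1 library 1, the deep one, 2977 without vehicle library 1, 3015 without vehicle library 2 and 4028 without 3-MB-PP1 library 2.

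**Figure D1:**
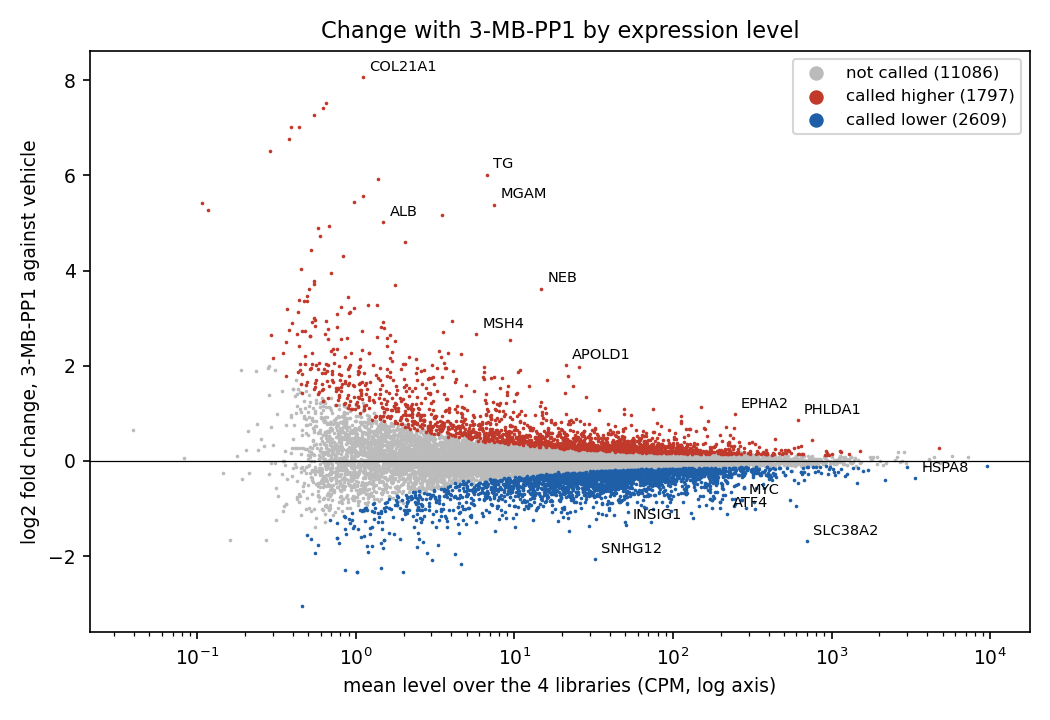
Log2 fold change with 3-MB-PP1 (vertical axis) against the mean level over the 4 libraries in CPM (horizontal log axis); each point is 1 of the 15492 genes tested, red if called higher (1797), blue if called lower (2609) and grey if not called. Rises over 4-fold lie mostly at the left, among genes under 1 CPM in vehicle, while SLC38A2 and HSPA8 stand among the falls at high levels.

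The 3 largest rises among genes with a mean of at least 5 CPM were those of TG, MGAM and NEB, all low in vehicle. TG, which encodes the thyroid hormone precursor thyroglobulin, was at 0.0788 and 0.308 CPM in vehicle and at 12.7 and 13.8 CPM with 3-MB-PP1 (log2 fold change 6.02 ± 0.29 SE). SLA lies inside TG on the other strand, and the counting is not stated to use strand, so the reads of the pair cannot be told apart. MGAM, the gut enzyme maltase-glucoamylase (hg19 chr7:141695679-141806547), rose from 0.473 and 0.231 to 15.7 and 13.3 CPM (5.39 ± 0.27, adjusted p = 2.16e-13, edgeR). NEB, which encodes the giant muscle protein nebulin (hg19 chr2:152341853-152591001), rose from 1.97 and 2.47 to 27.9 and 26.5 CPM (3.62 ± 0.17). None of these ranges overlapped, and the 2 treated libraries, which differ in depth, lay close together.

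Further down the same ranking, MSH4, a meiotic recombination factor, was at 1.34 and 1.70 CPM in vehicle and at 9.18 and 10.8 CPM in treated cells (2.66 ± 0.20). NUP50-DT, a noncoding transcript that diverges from the nucleoporin gene NUP50, rose from 2.52 and 2.93 to 16.0 and 16.1 CPM (2.55 ± 0.16). APOLD1, an endothelial apolipoprotein L relative that contains MIR613, rose from 8.82 and 8.01 CPM to 33.8 CPM in both treated libraries (2.01 ± 0.11). The other rises of this set lay between 1.74 (WNK4, a kinase that regulates salt transport) and 1.98 (CCDC62), and included DNAH10, an axonemal dynein heavy chain, at 1.91, and KRCC1 at 1.77. TICAM2, an adaptor of Toll-like receptors, rose from 10.4 CPM in both vehicle libraries to 40.1 and 41.7 CPM (1.97 ± 0.10), but the read-through gene TMED7-TICAM2 shares its exons and the counting could split the reads.

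Of genes without a single count in either control, COL21A1, a collagen gene, reached 1.5 and 2.95 CPM (76 and 31 counts), at least 9.48-fold over a floor of 3 counts in each vehicle library. TBR1, a transcription factor of the developing cortex, reached 1.05 and 1.14 CPM (53 and 12 counts), at least 4.66-fold. CCDC79, a gene of meiotic telomere attachment, reached 0.908 and 0.856 CPM (46 and 9 counts), at least 3.76-fold. TAS2R5, a bitter taste receptor gene, reached 63 and 14 counts, at least 5.49-fold, and KIAA1409, which contains COX8C, 58 and 14 counts, at least 5.28-fold. WDR49 and CLEC5A reached 50 and 6 and 34 and 5 counts, at least 3.32-fold and 2.44-fold. DOCK8 and RAB44 were also called, with treated levels at or under that floor, so no fold is given; both calls were lost without 3-MB-PP1 library 1 and without either vehicle library.

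Markers of other cell types were also examined, most of them at low counts. ALB, serum albumin, had 2 counts in the vehicle libraries together and 165 with 3-MB-PP1, a ratio of 34.5 after scaling (95% interval 9.4 to 287, counting error only). LGR5, the receptor that marks intestinal crypt stem cells, had 1 count in vehicle and 60 with the drug, a ratio of 25.1 (4.33 to 1007). KDR, a VEGF receptor of endothelium, was at 1.02 and 1.39 CPM against 5.05 and 4.57 CPM (log2 fold change 2.02 ± 0.24). Of 9 liver and thyroid markers 4 passed the filter and 2, TG and ALB, rose; of 6 endothelial markers 3 passed and KDR alone rose, with the other 2 below 0 and not called. CDH5, the cadherin that defines endothelium, was without a count in all 4 libraries, as were APOB and FGA of the liver list. The liver and thyroid markers summed to 3.94 to 5.16 CPM in vehicle and 20.2 to 21.9 CPM with 3-MB-PP1, and the endothelial markers to 11.5 to 14.2 and 12.5 to 15.5 CPM. Of 10 fibroblast and muscle markers 4 passed and ACTA2, smooth muscle actin, alone rose, from 6.22 and 4.39 to 12.4 and 12.2 CPM (1.22 ± 0.16). That list summed to 30.1 to 34.3 CPM in vehicle and 35.9 to 38.4 CPM with 3-MB-PP1, and DCN and LUM were without a count in all 4 libraries. Of 11 neuronal markers 9 passed and 2 rose, TBR1 and SYT1, a synaptic vesicle protein (0.30 ± 0.07); the list summed to 57.1 to 62.2 and 65.4 to 67.9 CPM. Of the 12 epithelial markers tested 4 fell and 2 rose (median -0.20, which turned to 0.06 with spike-in scaling), led by ELF3, an epithelial transcription factor, at -0.62; with 1 library left out 2 or 3 fell and at most 1 rose. The part of these markers in the other results was not tested.

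Among the 1031 tested genes under 1 CPM in vehicle, 246 were called higher and 6 lower. Such a split is partly fixed by how genes entered the test. A gene below the cutoff of the filter on low counts in both vehicle libraries passes only through higher values in other libraries. These counts therefore describe the set and support nothing. Of the 116 genes that rose over 4-fold, 85 pass the filter on the 4 libraries of the comparison alone, and the other 31 entered the test through the 5-FU libraries. Only the 85 can be read separately in the libraries with prior 5-FU, which share no sample with this comparison. All 85 had a positive log2 fold change there (median 2.17) and 71 (83.5%) were called higher. Outside this set, the 551 genes under 1 CPM in vehicle that pass the same filter had a median of 0.37, with 80 (14.5%) called higher, close to the 15.7% of all genes tested. This restriction was chosen after the values were seen. The number called of the 116 depended on the processing: 61 were tested and called with a filter of 1 CPM in 4 libraries, 104 of 110 tested with the deep library thinned to the depth of the shallowest, 82 of 116 with DESeq2, 80 of 116 with spike-in scaling, and 89 to 115 with 1 library left out.

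Some of the 116 genes lie shortly after an expressed gene on the same strand. In hg19 coordinates, 31.9% of the 116 genes (37) had as their nearest upstream gene on the same strand one of at least 5 CPM in vehicle that ended within 10 kb; over all tested genes the share was 13.2%. Among genes under 1 CPM in vehicle, the share was 22.4% for the 246 called higher and 13% for the other 785. These sets include genes that passed the filter only through the 5-FU libraries, and the share was not computed for the 85 alone. The shares describe the sets, and their differences were not tested. TBR1 starts 4.39 kb after PSMD14, a proteasome subunit gene at 243 CPM in vehicle, and CCDC79 1.26 kb after NAE1, a neddylation enzyme gene at 218 CPM. MSH4 starts 1.79 kb after RABGGTB, APOLD1 3.54 kb after CDKN1B, and LCT, the lactase gene, 2.44 kb after MCM6. The upstream genes of the 37 had a median log2 fold change of -0.05; PSMD14 was at 0.02 and NAE1 at -0.02, while RABGGTB, which hosts snoRNAs, fell by 1.06. Whether the reads over these genes began at their own start sites or further upstream was not tested, since the tables hold only 1 count per transcript.

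**Figure D2:**
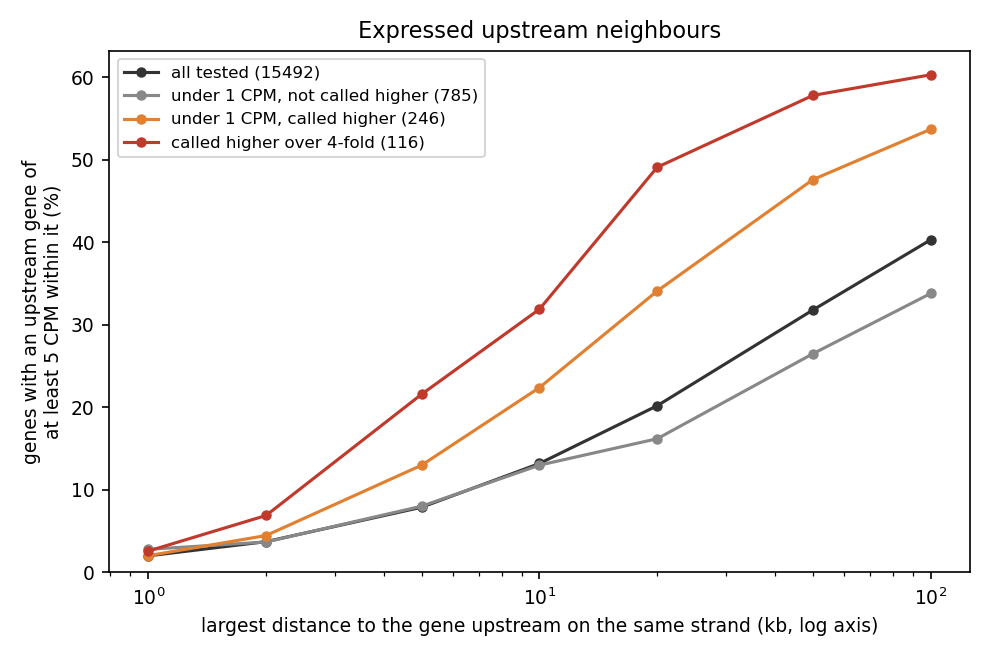
Share of genes (vertical axis, percent) whose nearest upstream gene on the same strand is at 5 CPM or more in vehicle and ends within the distance on the horizontal log axis (kb). Lines are all tested genes (15492), genes under 1 CPM in vehicle not called higher (785) and called higher (246), and genes called higher over 4-fold (116); at 10 kb the shares are 13.2%, 13%, 22.4% and 31.9%.

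The set of the 15 largest falls among genes of at least 5 CPM held SNHG12, SNHG3 and SNHG1, host genes of small nucleolar RNAs (snoRNAs). SNHG12 (hg19 chr1:28905050-28908366), a spliced noncoding RNA whose introns carry snoRNAs, fell from 52.4 and 51.7 CPM to 12.14 and 13.04 CPM (log2 fold change -2.07 ± 0.08 SE, adjusted p = 5.1e-15, edgeR). TRNAU1AP overlaps it on the other strand, so its value is uncertain. SLC38A2, the main adaptive transporter of small neutral amino acids (hg19 chr12:46751971-46766645), fell from 1083 and 1040 CPM to 320 and 340 CPM (-1.69 ± 0.05). TNFSF4, the OX40 ligand, fell from 34.7 and 30.7 to 11.8 and 11.6 CPM (-1.48 ± 0.11). The groups did not overlap in any of the 3 genes.

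Other members of this set were CYP1A1, a target of the aryl hydrocarbon receptor, at -1.38, ARHGEF19, a guanine nucleotide exchange factor, at -1.36, and SOX4, a transcription factor of progenitor cells, at -1.28. E2F6, a repressor of the E2F family, was at -1.22, SLC29A2, a nucleoside transporter, at -1.21, FAM123B, a regulator of beta-catenin, at -1.20 and ZNF248 at -1.23. TOMM40L was at -1.27, with NR1I3 on the other strand. The 5 largest falls in CPM were those of HSPA8, a constitutive HSP70 chaperone (3709 and 3840 to 2989 and 2868 CPM), EEF1A1, the translation elongation factor, SLC38A2, SSFA2 and KITLG, the ligand of the receptor KIT (1683 and 1653 to 1175 and 1251 CPM). The largest rises in CPM were those of RPPH1, the RNA of RNase P (4001 and 4568 to 5032 and 5381 CPM), PHLDA1, AHNAK, PABPC1 and ANXA2; the edgeR call of PABPC1 was lost without 3-MB-PP1 library 2 (adjusted p = 0.696) and without either vehicle library (0.127 and 0.071), and that of ANXA2 without vehicle library 1 (0.0573). EEF1A1, which fell by 0.11, lost its call without 3-MB-PP1 library 1 (0.109).

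**Figure D3:**
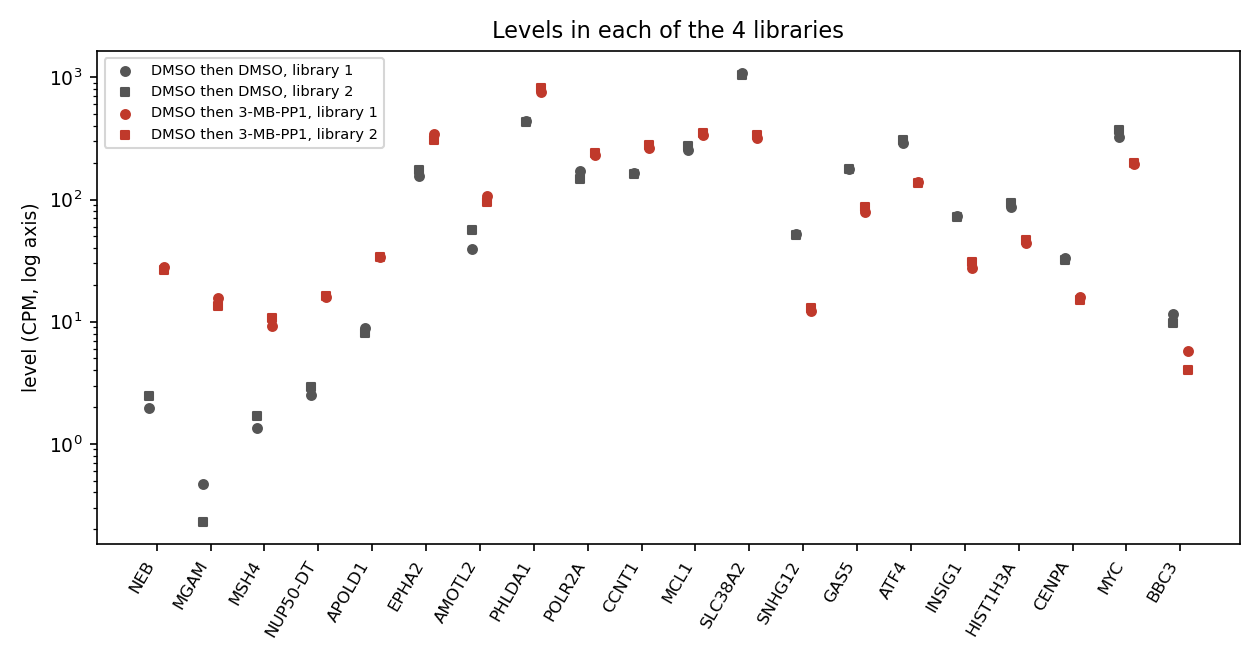
Level in CPM (vertical log axis) of 20 genes of the text in each of the 4 libraries; grey marks are DMSO then DMSO, red marks DMSO then 3-MB-PP1, circles library 1 and squares library 2. In each gene both red marks lie on the same side of both grey ones, with the widest gap in MGAM (0.473 and 0.231 against 15.7 and 13.3 CPM).

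The replication-dependent histone genes fell together and had the lowest median of all lists examined. These intronless genes are transcribed in S phase, and most of their mRNAs end in a stem-loop in place of a poly(A) tail. Of 57 tested, 53 fell and none was called higher, against 16.8% lower among all genes tested; the median was -0.74, and in 55 both treated libraries were below both controls. All 15 H2A genes, all 12 H4 genes, 16 of 17 H2B genes, 8 of 10 H3 genes and 2 of 3 H1 genes fell. HIST1H3A went from 86.4 and 93.8 CPM to 44.3 and 46.8 CPM (-0.99 ± 0.08) and HIST1H4H from 46.2 and 44.6 to 20.3 and 23.4 CPM (-1.09 ± 0.10). HIST1H3H, from 225.6 and 245 to 119.3 and 119.1 CPM, was at -0.98, HIST1H4A at -1.07 and HIST1H2AG at -0.55. With spike-in scaling all 57 stayed below 0 (median -0.58), but edgeR called none and none had an unadjusted p under 0.05; DESeq2 called 49 and leaving out 1 library left 51 to 54 calls. Histone gene bodies are near-identical in places, so reads may have been split between copies.

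The promoters of 4 of these histone genes are shown. In 3 of them the exact letters TATAAA and CCAAT occur, which are common in the group. HIST1H4H, with the largest fall of the 4, has neither in exact letters. Each run is the 120 bases before the annotated start, 5′ to 3′ on the gene's strand (RefSeq, GRCh38.p14), with TATAAA and CCAAT, on either strand, in capitals. The motifs were chosen after the values were seen. The runs lie at chr6:26020331-26020450 (HIST1H3A, plus strand), chr6:27809931-27810050 (HIST1H3H, plus strand), chr6:27132923-27133042 (HIST1H2AG, plus strand) and chr6:26285535-26285654 (HIST1H4H, minus strand).
HIST1H3A: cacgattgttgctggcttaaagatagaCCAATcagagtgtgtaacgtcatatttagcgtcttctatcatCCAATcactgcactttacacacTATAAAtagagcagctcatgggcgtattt
HIST1H3H: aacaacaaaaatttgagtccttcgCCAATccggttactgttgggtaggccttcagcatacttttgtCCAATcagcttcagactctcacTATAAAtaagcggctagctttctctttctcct
HIST1H2AG: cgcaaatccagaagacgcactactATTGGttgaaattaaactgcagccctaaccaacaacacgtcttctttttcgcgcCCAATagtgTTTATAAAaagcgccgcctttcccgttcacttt
HIST1H4H: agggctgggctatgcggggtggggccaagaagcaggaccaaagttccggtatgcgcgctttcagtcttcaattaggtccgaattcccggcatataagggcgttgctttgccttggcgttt

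In HIST1H3A and HIST1H3H the TATAAA begins 29 and 32 bases before the start, and 2 copies of CCAAT lie at 93 and 51 and at 96 and 54 bases before it. HIST1H2AG has 1 CCAAT on each strand, and its TATAAA matches on both strands, so the 2 matches overlap. The run of HIST1H4H, the member with the largest fall, holds neither motif in exact letters. It does hold the similar letters tataag, at about the place where TATAAA stands in HIST1H3A. The exact search does not count them. A promoter was found for 47 of the 57 tested histone genes, and in the 250 bases before the start 32 of them (68.1%) held TATAAA and 38 (80.9%) CCAAT. Over the 11635 tested genes with a promoter in the table the shares were 8.78% and 41.1%. The shares among all called genes were near these: 8.94% and 40% for genes called higher, 9.4% and 42.5% for genes called lower. A match is a description of the letters in the window.

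Genes of the cell cycle machinery were lower by smaller amounts. Of 42 G1/S and DNA replication genes 25 fell and 2 rose (median -0.23). With spike-in scaling none was called, the median was -0.02, and 21 of the 42 were below 0, against 37 with TMM. Of all genes tested 16.8% were lower, and of the 3873 with the highest mean levels (62.1 to 9547 CPM) 22.1%. CDC25A, the phosphatase that activates CDK2, fell from 91.1 and 98.5 to 56.5 and 59.5 CPM (-0.72 ± 0.07), CDT1, a factor that licenses origins, from 107 and 120 to 69.9 and 69.1 CPM (-0.70 ± 0.07). E2F2 fell by 0.71 and CCNE2, cyclin E2, by 0.66, while E2F3 rose by 0.36. SLBP, which binds the histone stem-loop, fell by 0.36. MCM3, a subunit of the replicative helicase, fell by 0.29.

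Of 34 mitosis genes 23 fell and none rose (median -0.26, and -0.06 with none called with spike-in scaling). Lower were 16.8% of all genes tested and 22.1% of the 3873 with the highest mean levels. CENPA, the centromeric histone H3 variant, fell most, from 33.2 and 32.0 to 16.01 and 15.03 CPM (-1.05 ± 0.10). PLK4, the kinase of centriole duplication, fell by 0.69, TTK, a kinase of the spindle checkpoint, by 0.61, AURKA by 0.55 and CDK1 by 0.47; CCNA2, CCNB1 and PLK1 fell by 0.30, 0.24 and 0.27. Of 22 homologous recombination and checkpoint genes 10 fell and 1 rose (median -0.14, which turned to 0.08 with spike-in scaling), led by RAD54L at -0.70, EXO1 at -0.55 and CLSPN at -0.48. CCNE2, CCNA2, PLK1 and RAD54L overlap a gene on the other strand, which makes their values uncertain. Without vehicle library 2 this last list had 5 falls.

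Host genes of snoRNAs and genes of ribosome production were lower, while the ribosomal protein genes were not moved as a group. All 13 tested host genes had a negative log2 fold change (median -0.52, and -0.30 with spike-in scaling). Of them 9 fell, against 16.8% of all genes tested. Beside SNHG12, SNHG3 fell by 1.29, SNHG1 from 184 and 188 to 83.7 and 78.3 CPM (-1.19 ± 0.06), GAS5 from 178 and 176 to 79.1 and 87.2 CPM (-1.10 ± 0.06) and SNHG5 by 0.89. All 13 overlap other genes in the annotation, mostly their own snoRNAs. Host transcripts of this kind are known to be unstable when translated, by nonsense-mediated decay. Of 160 rows of snoRNAs and scaRNAs 59 were lower and 5 higher (median -0.44); 150 of the 160 overlap another gene, usually the host, and the falls numbered 27 without 3-MB-PP1 library 1 and 33 without vehicle library 1.

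Of 39 genes of ribosome biogenesis and Pol I 20 fell and none rose (median -0.17, which turned to 0.06 with spike-in scaling). TAF1D, a subunit of the Pol I selectivity factor, fell from 66.8 and 66.2 to 33.9 and 37.9 CPM (-0.92 ± 0.07), POLR1C, a subunit shared by Pol I and Pol III, from 83.5 and 80.8 to 46.7 and 46.4 CPM (-0.82 ± 0.06), and RRS1 by 0.67. PPAN fell by 0.69; it shares exons with PPAN-P2RY11. Of 82 cytoplasmic ribosomal protein genes 4 fell and none rose (median -0.02), led by RPL7L1, a paralogue, at -0.48 and RPL13A at -0.30; leaving out 1 library gave 2 to 6 falls and up to 3 rises. Of 79 mitochondrial ribosomal protein genes 19 fell and 2 rose (median -0.10, which turned to 0.10 with spike-in scaling). Among all genes tested 16.8% were lower. That share was 23.3% for the 3873 genes of 22.1 to 62.1 CPM and 22.1% for the 3873 of 62.1 to 9547 CPM. The median vehicle level was 61.6 CPM for the 79 genes and 162 CPM for the 39 of ribosome biogenesis. With DESeq2 12 of the 79 fell, beside 1623 of 20624 genes lower in that setting, which includes genes that did not pass the filter on low counts. Without vehicle library 2 the median of the list was -0.09. EIF5, a translation initiation factor, fell from 433.9 and 449.3 to 212 and 229 CPM (-1.01 ± 0.05).

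The genes of the transcription machinery itself were called in both directions. For CDK7 with TFIIH and for the Pol II subunits the share called was near the 28.4% of all genes tested. Of the 10 genes of CDK7 and TFIIH, 2 fell and 1 rose (median -0.06, 0.14 with spike-in scaling). CDK7 fell from 80.7 and 83.9 to 60.6 and 62.5 CPM (-0.42 ± 0.07, adjusted p = 1.9e-05, edgeR). Its partners CCNH (-0.05, adjusted p = 0.71) and MNAT1 (-0.08, adjusted p = 0.52) did not pass edgeR's test, and their libraries overlapped between the groups. Of the other 2 calls, GTF2H2 at -0.24 was lost without vehicle library 2, and GTF2H5 at 0.26 without 3-MB-PP1 library 1 or vehicle library 1. The labels name no change to the CDK7 gene, so its level checks no label. POLR2A, the largest Pol II subunit, rose from 172 and 148 to 230 and 240 CPM (0.55 ± 0.07). Of the other 11 subunits POLR2H fell by 0.29 and POLR2K was called at 0.22, a call that needed vehicle library 1 (adjusted p = 0.692 without it, edgeR) and both treated libraries.

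Within P-TEFb and its regulators the T cyclins rose, and the 7SK regulators MEPCE and HEXIM1 fell. HEXIM2 was not called, and LARP7, at -0.22, lost its call without 3-MB-PP1 library 2 and without vehicle library 2. CCNT1, cyclin T1, rose from 166 and 161 to 262 and 278 CPM (0.72 ± 0.06) and CCNT2 from 63.3 and 59.6 to 83.8 and 89.0 CPM (0.48 ± 0.07), while CDK9 itself stood at 0.00 (adjusted p = 0.97, edgeR). MEPCE, which caps 7SK RNA, fell from 63.7 and 60.5 to 36.2 and 34.6 CPM (-0.80 ± 0.07) and HEXIM1, the inhibitor held in the 7SK complex, from 58.7 and 57.3 to 36.7 and 46.1 CPM (-0.53 ± 0.08). Of all 15 members 4 rose and 5 fell, against 11.6% higher and 16.8% lower among all genes tested. The others called were ELL, ELL2, MLLT1, MLLT3 and LARP7, and of these only MLLT1, at -0.35, was called with each of the 4 libraries left out in turn. Without vehicle library 2 the list had 2 rises and 3 falls, and without vehicle library 1 it had 2 and 4. Its median was 0.00, and 0.29 with spike-in scaling, where 0 were called. CDK12, the kinase of late elongation, fell by 0.37, the only call among 11 other transcription CDKs, their cyclins and Mediator kinase genes.

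SR proteins, related splicing factors and the kinases that act on them were called in both directions. Of 18 members 8 fell and 4 rose (median -0.13, 0.09 with spike-in scaling), against 16.8% lower and 11.6% higher among all genes tested. SRSF3 fell from 438 and 460 to 297 and 306 CPM (-0.58 ± 0.05), SRSF7 by 0.43, SRSF4 by 0.40 and SRSF2, which MFSD11 overlaps on the other strand, by 0.38. Without vehicle library 2 the falls numbered 5. TRA2A, an SR-like splicing factor, rose from 98.6 and 97.5 to 113 and 137.7 CPM (0.33 ± 0.07). CLK3 rose from 43.5 and 46.2 to 60.2 and 56.2 CPM (0.39 ± 0.07), with CLK2 at 0.33; the edgeR call of CLK2 was lost without 3-MB-PP1 library 1 (adjusted p = 0.081). CLK4 stood at 0.40, a call lost without 3-MB-PP1 library 2 (0.056) and without vehicle library 2 (0.221).

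**Figure D4:**
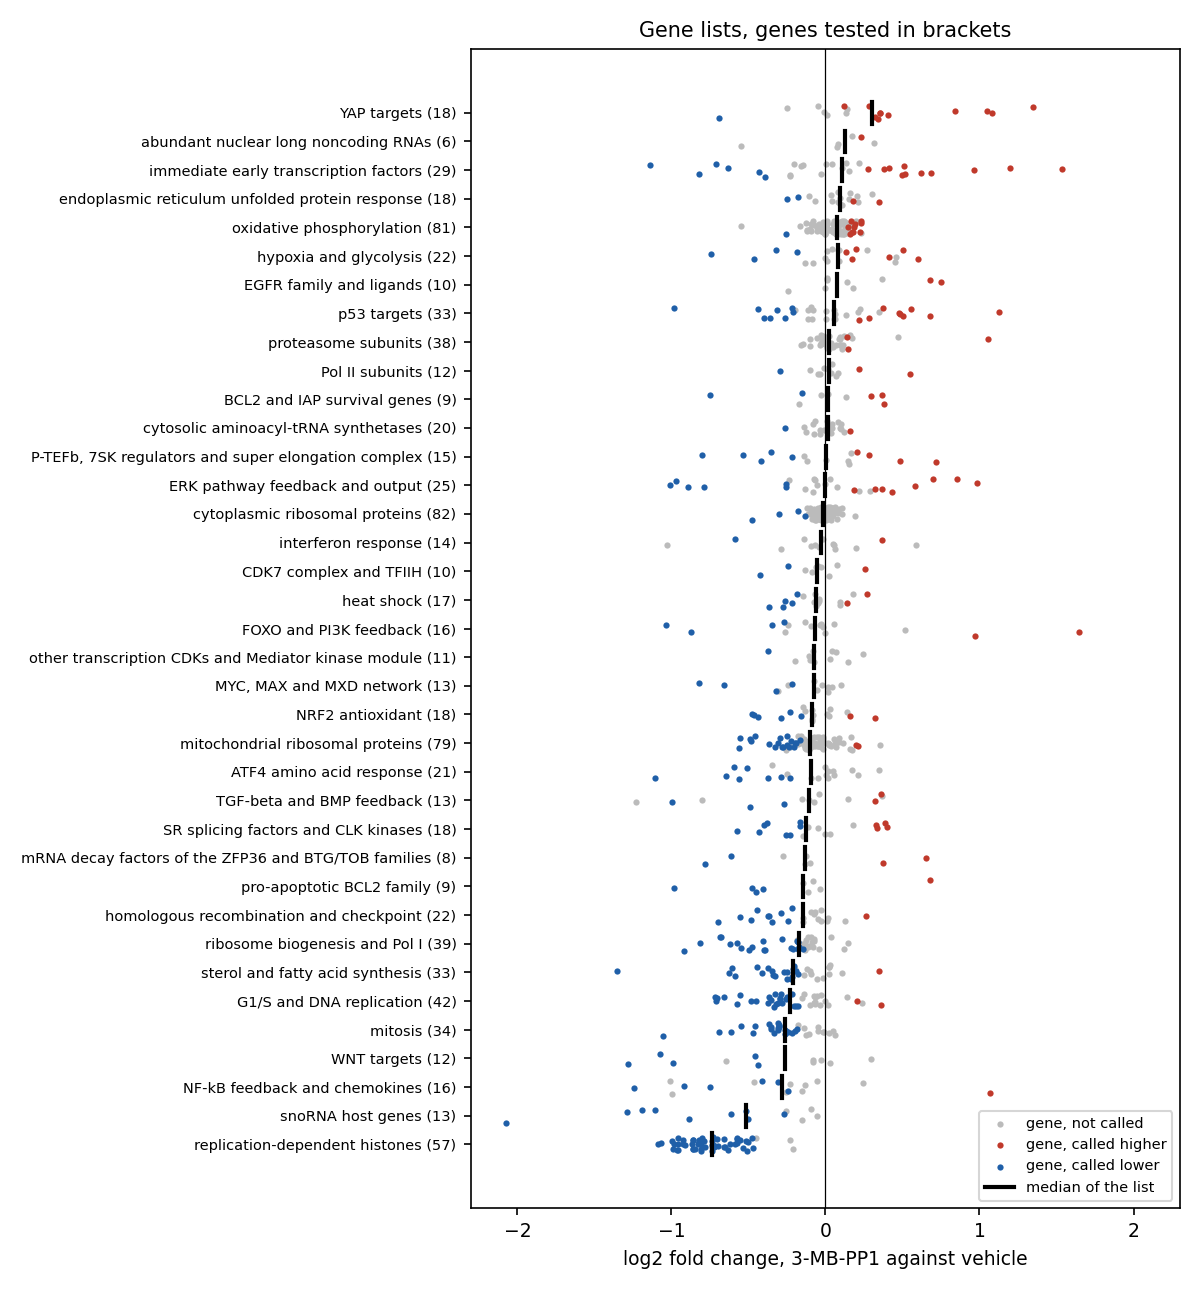
Log2 fold change with 3-MB-PP1 (horizontal axis) of every tested gene of 37 gene lists (vertical axis, number of tested genes in brackets), red if called higher, blue if called lower, grey if not called; the black bar is the list's median, and LGR5, at 4.43, lies outside the axis. Replication-dependent histones (median -0.74) and snoRNA host genes (-0.52) lie furthest left and YAP targets (0.30) furthest right.

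YAP targets formed the list with the highest share of rises. YAP is the transcriptional coactivator restrained by the Hippo kinases. Of 18 tested targets 11 rose and 1 fell (median 0.30), against 11.6% higher among all genes tested; leaving out 1 library left 8 to 10 rises. AMOTL2, a scaffold that restrains YAP, rose from 39.3 and 56.7 to 107 and 94.8 CPM (1.08 ± 0.10), CYR61, a matricellular protein, from 5.99 and 8.09 to 13.99 and 15.99 CPM (1.05 ± 0.14) and NT5E, the ecto-nucleotidase CD73, from 110 and 129 to 214 and 215 CPM (0.84 ± 0.06). FJX1 fell by 0.69. With spike-in scaling the median of the list was 0.55, but edgeR called none, and 4 had an unadjusted p under 0.05. DESeq2 called 8 higher and 1 lower. CTGF, the best known target, was low in all libraries (0.709 and 1.233 CPM in vehicle, 0.8092 and 0.8564 CPM treated) and was not called.

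Immediate early and ERK pathway genes divided. Of 29 immediate early factors 11 were called higher and 6 lower (median 0.11), but without vehicle library 1 the split was 4 higher and 9 lower, and with DESeq2 it was 6 and 6. Over all genes tested 11.6% were higher and 16.8% lower. With spike-in scaling the median of the list was 0.22 and 0 were called. MYC, the growth regulator, fell from 324 and 374 to 197 and 198 CPM (-0.82 ± 0.06), IER3 by 0.71, JUND by 0.63 and KLF11 by 1.14. KLF10 rose from 97.5 and 121.5 to 167 and 170 CPM (0.62 ± 0.07). EGR1 was at 43.4 and 72.2 CPM in vehicle and 75.1 and 76.03 CPM with the drug, an edgeR call lost without vehicle library 1 (adjusted p = 0.647). FOS was at 5.44 and 6.32 against 7.7 and 9.8 CPM, a call lost without vehicle library 1 (0.201) and without 3-MB-PP1 library 2 (0.0849).

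In the ERK feedback list 8 of 25 genes rose and 6 fell (median -0.01), against 11.6% higher and 16.8% lower among all genes tested. The falls numbered 3 without 3-MB-PP1 library 1 and 3 without vehicle library 2. With spike-in scaling the median of the list was 0.23 and 0 were called. EPHA2, an ephrin receptor, rose from 156 and 173 to 342 and 307 CPM (0.98 ± 0.06), PHLDA1 from 441 and 429 to 761 and 816 CPM (0.85 ± 0.05), DUSP4, a nuclear MAP kinase phosphatase, by 0.70, SPRY4, an inhibitor of receptor signalling, by 0.58 and CCND1, cyclin D1, from 531 and 601 to 685 and 730 CPM (0.32 ± 0.05). DUSP2 fell by 0.97. TGFA, a ligand of EGFR, rose from 94.2 and 98.5 to 154 and 155 CPM (0.68 ± 0.05), and among the 10 EGFR family members and ligands BTC was also called, at 0.75, a call lost without any 1 of the 4 libraries.

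Targets of WNT, NF-kB and the amino acid response had more falls than rises, though most members of each list did not pass as falls. Of 12 WNT targets 5 fell and 1, LGR5, rose (median -0.26); AXIN2, the feedback scaffold of the pathway, fell from 24.4 and 21.5 to 10.1 and 12.8 CPM (-1.08 ± 0.12) and DKK1, a secreted WNT inhibitor, from 368 and 398 to 191 and 196 CPM (-0.99 ± 0.05). Without 3-MB-PP1 library 1 this list had 3 falls. Of 16 NF-kB genes 6 fell and 1 rose (median -0.28), with ICAM1, an adhesion receptor, at -0.92, NFKBIA, the inhibitor of NF-kB, at -0.41 and TRAF1 at 1.07; 3 falls were called without 3-MB-PP1 library 1 and 4 without vehicle library 1 or 2. ATF4, the transcription factor that drives amino acid uptake and synthesis, fell from 290 and 306 to 140 and 137 CPM (-1.11 ± 0.06). Of the 21 genes of its list 8 fell and none rose, among them CEBPB (-0.65), STC2 (-0.59) and DDIT3 (-0.56, with MARS on the other strand), but ASNS and most transporters of the list did not pass the test. The median of this list, -0.10, turned to 0.10 with spike-in scaling. In that setting the WNT median was -0.07, with 1 member called higher and 0 lower. The NF-kB median was -0.16 there, with 0 called. Among all genes tested with TMM, 16.8% were lower and 11.6% higher.

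Sterol and fatty acid synthesis genes were lower, led by their sterol sensor. INSIG1, which holds the SREBP precursors in the endoplasmic reticulum (hg19 chr7:155089486-155101945), fell from 73.6 and 71.8 to 27.3 and 30.5 CPM (-1.35 ± 0.08). Of 33 list members 19 fell and 1 rose (median -0.21, which turned to 0.02 with spike-in scaling). Lower were 16.8% of all genes tested and 22.1% of the 3873 with the highest mean levels. SQLE, squalene epoxidase, fell by 0.61 and SC4MOL by 0.59. TM7SF2 was the only member called higher, at 0.35, and lost this call without any 1 of the 4 libraries.

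p53 targets moved in both directions in these cells without 5-FU, 9 of 33 rising and 8 falling (median 0.05). The shares over all genes tested were 11.6% higher and 16.8% lower. With spike-in scaling the median of the list was 0.25, 7 of the 33 were below 0 and 0 were called. The decoy death receptor gene TNFRSF10D rose from 94.2 and 95.8 to 207 CPM in both treated libraries (1.12 ± 0.05), PMAIP1, the BH3-only protein NOXA, by 0.68 and PLK3, with TCTEX1D4 on the other strand, by 0.55. BBC3, the BH3-only protein PUMA, fell from 11.5 and 9.71 to 5.78 and 4.00 CPM (-0.99 ± 0.15). MDM2, the ubiquitin ligase of p53, fell from 454 and 431 to 360 and 352 CPM (-0.31 ± 0.05) and CDKN1A, the CDK inhibitor p21, from 194 and 200 to 173 and 165 CPM (-0.22 ± 0.05). MCL1, a short-lived survival protein of the BCL2 family, rose at the mRNA level from 254 and 275 to 335 and 347 CPM (0.37 ± 0.05), and BCL2L1 by 0.29. The falls of this list numbered 5 without 3-MB-PP1 library 1.

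The same drug given after 5-FU changed many of the same genes. There 5101 genes (32.9%) were called, 2428 higher (15.7%) and 2673 lower (17.3%). Across the 15492 genes the log2 fold changes of the 2 comparisons, which share no library, correlated at r = 0.726 (Spearman 0.598); genes are not independent replicates, and the 2 share one fit of the spread. Of the 1797 genes higher without 5-FU, 1008 were also higher after it, which is 56.1% of the first list and 41.5% of the second; 35 were lower. Of the 2609 lower genes, 1593 were also lower, 61.1% and 59.6%, and 30 were higher. SLC38A2 (-1.69 without and -1.59 after 5-FU), SNHG12 (-2.07 and -1.81), ATF4 (-1.11 and -1.17), POLR2A (0.55 and 0.54) and NEB (3.62 and 4.27) were close in both.

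The effect itself differed between the backgrounds for 650 genes (4.2%) by the interaction term of the fit, 322 more positive without 5-FU (2.08%) and 328 more negative (2.12%). This count was 240 without vehicle library 1, 349 without 3-MB-PP1 library 1, 279, 402 and 321 without the second 5-FU then 3-MB-PP1 library, the first, and the first 5-FU then DMSO library, and 0 with spike-in scaling (75 at an unadjusted p under 0.05; edgeR), where DESeq2 gave 377. The split moved too: 191 were more positive and 88 more negative without the second 5-FU then 3-MB-PP1 library, and 365 and 538 without 3-MB-PP1 library 2. Of the 34 mitosis genes 20 were among them, all more negative without 5-FU, with a median of -0.26 alone and 0.05 after 5-FU; 9 were called without the second 5-FU then 3-MB-PP1 library and 13 without vehicle library 1. G1/S genes followed the same order: 17 of 42 differed, 16 of them more negative alone, and the medians were -0.23 and 0.13; 8 were called without the second 5-FU then 3-MB-PP1 library and 11 without vehicle library 1 or 2. Immediate early factors went the other way, with 13 of 29 more positive alone and medians of 0.11 and -0.46; 8 were called without 3-MB-PP1 library 1 or vehicle library 1. MYC went from 523 and 505 CPM in 5-FU to 148 and 150 CPM with 3-MB-PP1 after it, a log2 fold change of -1.78 against -0.82 alone. Sterol genes had medians of -0.21 alone and -0.01 after 5-FU, and 5 of 33 differed, or 2 without 3-MB-PP1 library 1, without vehicle library 1 or without either library treated after 5-FU.

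Some genes with a large difference stood at other levels after 5-FU. ANGPTL4, a lipoprotein lipase inhibitor, was at 4.89 and 4.47 CPM in vehicle and 7.24 and 7.90 CPM with 3-MB-PP1 alone, and went from 22.7 and 18.1 CPM in 5-FU to 8.58 and 7.43 CPM with 3-MB-PP1 after it, a difference of effects of 2.01 ± 0.22. INSIG1 was at 10.0 and 9.23 CPM in 5-FU and 8.82 and 7.35 CPM with the drug after it, so its fall was -0.25 there and -1.35 alone (difference -1.10 ± 0.16). ARID5B, a chromatin regulator, fell from 14.5 and 12.6 to 5.80 and 6.28 CPM alone and stood at 14.6 and 14.6 CPM against 17.3 and 16.3 CPM after 5-FU (difference -1.39 ± 0.17). HSPA8 was at -0.37 alone and -1.60 after 5-FU, MDM2 at -0.31 and -1.25, and EPHA2 at 0.98 and 0.21. Histone genes were lower in both, with medians of -0.74 and -0.53, and 8 of 57 differed, all more negative alone; this number was 1 without the second 5-FU then 3-MB-PP1 library, 18 without the first, 5 without vehicle library 1 and 3 without vehicle library 2 or the second 5-FU then DMSO library.

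**Figure D5:**
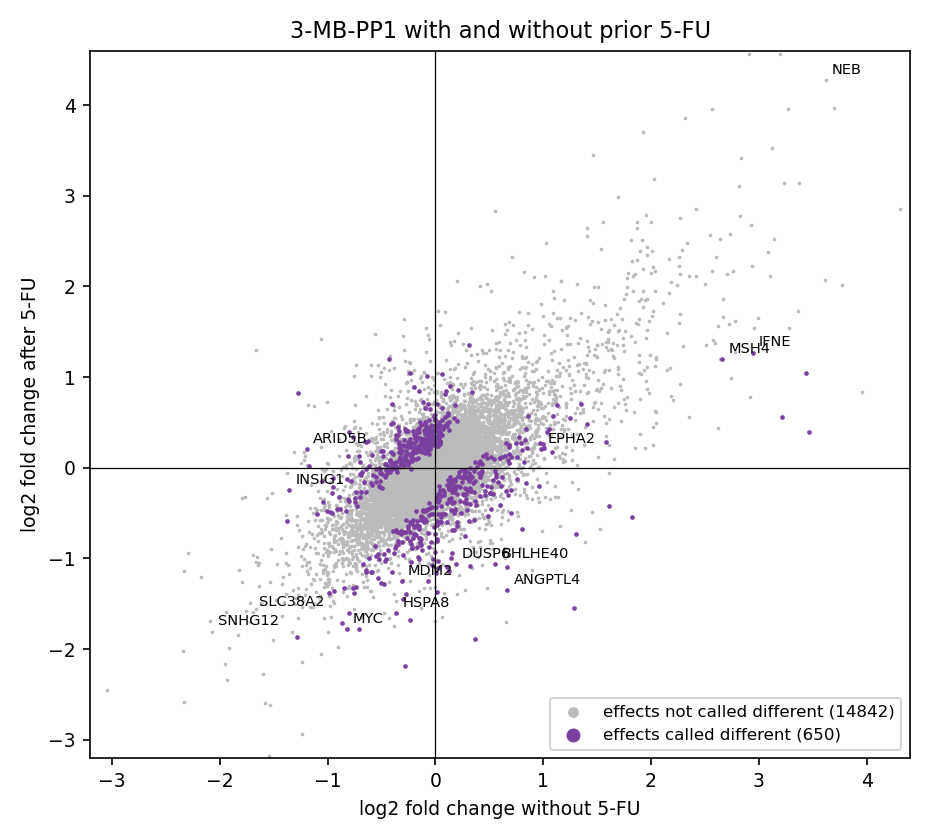
Log2 fold change with 3-MB-PP1 after 5-FU (vertical axis) against that without 5-FU (horizontal axis); each point is a gene, purple for the 650 whose effects were called different and grey for the other 14842, and 25 genes lie outside the axes. SLC38A2, SNHG12 and NEB lie near the diagonal, and ANGPTL4 (0.67 and -1.35) far below it.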

How the data were processed

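The deposited tables hold, for each of 8 libraries, 41735 rows: 92 spike-ins and 41643 RefSeq transcripts. The authors aligned reads with TopHat2 (2.0.13) to hg19, per the submitters' processing notes; on the counting program, the strand setting and the annotation release nothing is given in the sources used here. The deposited counts are raw reads per transcript, a read of a shared exon counting for each transcript. The deposited RPKM column, made by the authors per length and library total, was not used for tests. Of 6260 rows without a symbol 5902 were matched by accession, and each of 23524 genes kept the transcript with the highest mean count over the 8 libraries; 480 genes lie at several places.

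Differences were tested with edgeR 4.0.16 (R 4.3.3) by quasi-likelihood F tests on 1 model of 4 groups with 4 residual degrees of freedom, after TMM scaling and filterByExpr, with Benjamini-Hochberg adjustment over 15492 genes; the SE is the log2 fold change divided by the square root of F. Alternatives used DESeq2 1.42.0, limma 3.58.1, other scalings and filters, the longest transcript, the 4 libraries alone, the deep library thinned to 0.21 of its counts, and left-out libraries. The edgeR fit was also run on simulated counts with planted changes. Far fewer genes changed there than were called here, and the spread came from the fitted trend, so that run does not check these calls. With 2 libraries a group, the spread is estimated from few values. Samples were grouped by their titles. Some genes are not reported here.

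The comparison, the gene lists and the genes named were chosen with earlier results of these data known. Named are the 15 largest rises and falls among called genes of at least 5 CPM, genes without a vehicle count, up to 4 called members of each list and those against its direction, a short list of fixed genes, the largest differences between backgrounds, and the 5 largest changes in CPM. CCNA2, CCNB1, PLK1, CDK1, CDK9, CTGF, EIF5, HIST1H2AG, HIST1H3H, KLF10, LCT, MCM3, NAE1, NFKBIA, PSMD14, RABGGTB, SLBP, SNHG5, SRSF2, ELL and ELL2 fall outside this rule and were chosen after their values were seen. Whether replicate numbers pair libraries was checked from correlations of replicate differences between groups, which ran from -0.129 to 0.12, so no pairing was used.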

Additional observations from a re-analysis of the deposited data

Results flagged for a closer look

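The effect of 3-MB-PP1 differed between cells without and with prior 5-FU by the interaction term of the edgeR fit for the genes given here; each value is the log2 fold change alone minus that after 5-FU. More positive alone were ANGPTL4 (2.01), IFNE, an epithelial interferon (1.67), BHLHE40, a circadian repressor (1.61), and ALDOC, a glycolytic aldolase (1.48). More negative alone were ARID5B (-1.39), RHOU, a small GTPase (-1.20), RBM20, a splicing factor (-1.11), INSIG1 (-1.10) and MAP1LC3B2 (-1.09). MAP1LC3B2 overlapped alone, at 5.436 and 3.853 against 3.789 and 6.185 CPM, and went from 4.266 and 4.495 to 9.056 and 8.677 CPM after 5-FU. The calls of RBM20 and MAP1LC3B2 were each lost when single libraries were left out, RBM20 in 5 and MAP1LC3B2 in 6 of 8 cases. IFNE overlaps LOC554202 on the same strand, so its reads are shared with that gene. Among the genes fixed for the report, MYC (0.96), MDM2 (0.93), CDKN1A (0.67) and CCND1 (0.44) were less negative or more positive alone. None of these differences was called with spike-in scaling.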

How the results depend on the processing

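With DESeq2, 2542 genes were called alone, 3219 after 5-FU and 377 for the difference; with spike-in scaling the counts were 112, 53 and 0 (75 at an unadjusted p under 0.05 in edgeR); the cause was not tested. Leaving out 1 library gave 2972 to 4028, 3311 to 4258 and 240 to 903 genes. The other settings (limma, RLE scaling, both filters, the longest transcript, the 4 libraries alone and thinning) stayed within 1.5 times of each count. EEF1A1 turned to 0.11 with spike-in scaling. Thinning the deep library kept 80.7% of the rises and 86.2% of the falls. With the replicate number as a block 4452, 5158 and 666 genes were called; same-numbered libraries did not deviate together, and correlations of the differences between pairs of groups were -0.129 at lowest and 0.12 at highest. The block changed no count by more than 1.5 times. For genes without a vehicle count, depth limits the fold that can be stated.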
